A study of Mus musculus with 12 samples.

Results

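Interferon-stimulated genes are the genes that cells switch on when interferons bind their receptors. They are described here as a list of 36 genes, taken by gene symbol from the 33641 symbols of a transcript table of mouse myocardium, the muscle of the heart, after the transcripts of each gene were summed. The list was chosen for what the genes are known to do, and the rule uses no measured value. Earlier results of these data were known when it was chosen. The study compared 4 groups of 3 mice each, and each library came from the heart of a separate mouse. All groups were male wild-type C57BL/6 mice of about 16 weeks, and none carried an engineered transgene or deletion. The first group had sham surgery and vehicle, the second sham surgery and prednisone, the third myocardial infarction (MI) and vehicle, and the fourth MI and prednisone. Prednisone is a synthetic glucocorticoid. It was injected into the abdominal cavity at 1 mg/kg, once a week at lights-on for 6 weeks. Injections began 2 weeks after the operation, and the hearts were collected 24 hours after the final dose. The labels name the tissue only as myocardium, with no word on whether it came from the infarct, its border or remote muscle.

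Type I interferons act through the receptor pair Ifnar1 and Ifnar2 and the kinases Jak1 and Tyk2, which activate transcription factors of the STAT family. Stat2 and Irf9 are parts of the complex that binds the interferon-stimulated response element (ISRE) in target promoters. Interferon gamma acts through Ifngr1 and Ifngr2, and Jak1 and Jak2, and its targets carry the gamma-activated sequence (GAS). The products of the target genes sense viral nucleic acid, block translation or replication, remodel membranes, and feed back on the pathway. In infarcted hearts such a response has been described in macrophages that take up material from dying cells.

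The sequences just before the start sites of 9 members are printed here because they show the response elements of the pathway beside the genes whose levels are described. They were taken from RefSeq (GRCm38.p6), which gave a window of 250 bases before and 50 bases after the start for 27 of the 36 members. The ISRE was searched as GAAANNGAAA and its reverse complement TTTCNNTTTC, and the GAS as TTCNNNGAA, which reads the same on both strands. Capitals mark every match of either motif, also where matches overlap. The sequences run 5′ to 3′ on the gene's strand, cover up to 200 bases before the RefSeq start, and end earlier where the annotated gene begins.
Ifit1 (chr19:34640689-34640870, plus strand): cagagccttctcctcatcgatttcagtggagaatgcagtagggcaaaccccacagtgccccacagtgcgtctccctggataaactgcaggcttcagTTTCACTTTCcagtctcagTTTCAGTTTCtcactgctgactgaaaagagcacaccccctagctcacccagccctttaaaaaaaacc
Ifit3 (chr19:34583329-34583528, plus strand): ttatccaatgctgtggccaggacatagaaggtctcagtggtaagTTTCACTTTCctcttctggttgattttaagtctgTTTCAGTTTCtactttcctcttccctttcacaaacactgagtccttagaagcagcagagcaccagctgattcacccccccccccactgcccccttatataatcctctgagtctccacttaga
Ifit3b (chr19:34607757-34607956, plus strand): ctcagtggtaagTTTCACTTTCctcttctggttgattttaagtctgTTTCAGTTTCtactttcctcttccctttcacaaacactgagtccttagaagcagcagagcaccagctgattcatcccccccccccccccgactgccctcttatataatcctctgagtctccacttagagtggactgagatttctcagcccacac
Isg15 (chr4:156200819-156201018, minus strand): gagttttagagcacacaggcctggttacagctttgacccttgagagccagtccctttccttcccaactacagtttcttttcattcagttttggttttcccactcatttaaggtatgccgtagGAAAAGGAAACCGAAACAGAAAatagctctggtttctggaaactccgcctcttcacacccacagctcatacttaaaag
Oas1a (chr5:120907526-120907725, minus strand): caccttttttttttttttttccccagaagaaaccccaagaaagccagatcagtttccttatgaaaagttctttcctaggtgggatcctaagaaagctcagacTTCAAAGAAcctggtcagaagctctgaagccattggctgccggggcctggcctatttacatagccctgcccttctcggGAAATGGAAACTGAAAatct
Bst2 (chr8:71537473-71537672, minus strand): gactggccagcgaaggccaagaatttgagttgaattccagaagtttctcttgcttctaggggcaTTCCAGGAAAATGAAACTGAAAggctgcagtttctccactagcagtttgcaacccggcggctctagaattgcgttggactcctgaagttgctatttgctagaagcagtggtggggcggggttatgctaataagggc
Gbp7 (chr3:142530136-142530335, plus strand): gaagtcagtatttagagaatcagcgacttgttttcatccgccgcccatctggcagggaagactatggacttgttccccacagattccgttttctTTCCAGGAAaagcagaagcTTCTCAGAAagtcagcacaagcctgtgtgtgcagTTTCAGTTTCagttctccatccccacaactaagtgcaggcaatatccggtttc
Igtp (chr11:58199356-58199555, plus strand): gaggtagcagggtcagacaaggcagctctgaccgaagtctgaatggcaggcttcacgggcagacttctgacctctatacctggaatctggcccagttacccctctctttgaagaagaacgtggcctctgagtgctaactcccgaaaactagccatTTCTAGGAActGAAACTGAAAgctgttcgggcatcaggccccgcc
Irf1 (chr11:53769814-53770013, plus strand): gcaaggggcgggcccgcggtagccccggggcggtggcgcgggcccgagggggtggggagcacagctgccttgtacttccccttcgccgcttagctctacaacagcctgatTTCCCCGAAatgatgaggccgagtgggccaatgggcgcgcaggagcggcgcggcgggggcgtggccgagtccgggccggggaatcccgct

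The ISRE letters stood in the window of 18 of the 27 members (66.7%), against 3.99% of the 27025 symbols that had a window. GAS letters stood in 9 of the 27 (33.3%), against 9.55%. Both motifs were present in 6 members, and neither was found in the windows of Oasl2, Irf7, Irf9, Ifi44, Xaf1 and Cmpk2. The members held 29 ISRE matches, of which 23 lay before the start, at -222 to -14 counted from it. Isg15 had 3 overlapping ISRE matches at -78, -72 and -66, so that its capitals form 1 run. In Bst2 the GAS match at -136 overlapped the first of 2 ISRE matches at -130 and -124. Ifit3 and Ifit3b, which are neighbours and near copies, carried the same pair of ISRE matches with the same letters, at -156 and -122 in Ifit3 and at -188 and -154 in Ifit3b. Irf1, itself a transcription factor, had a GAS match at -90 and no ISRE match. A match is a match of letters only, and binding was not measured.

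Many members are neighbours in the genome. Ifit2, Ifit3, Ifit3b and Ifit1 lie on chromosome 19 between 34550694 and 34650009 (GRCm38), and Gbp7, Gbp3 and Gbp2 on chromosome 3 between 142530342 and 142638008. Ifitm3 and Irf7 are near each other on chromosome 7, Oas2 and Oas1a on chromosome 5, and Rsad2 with Cmpk2, and Ifi27 with Ifi27l2a, at separate places on chromosome 12. Near copies share sequence. Of the 31-base words in the main transcript of Ifit3, 61.8% also occurred in Ifit3b, and of those of Oas1a 68.7% occurred in Oas1g. The split of reads within these pairs is uncertain, and the same holds to a lesser degree for Ifitm3, of whose words 20.5% occurred in other genes, and for Igtp, which shared 16.4% with Irgm2.

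The values are TPM, the share of a transcript in its library scaled so that all transcripts sum to 1000000, so the read depth is unknown and precision rests on the spread between 3 mice. Between mice of a group, log2 values correlated across genes at r of 0.969 to 0.984 for sham vehicle, 0.986 to 0.987 for sham prednisone, 0.891 to 0.957 for MI vehicle and 0.963 to 0.971 for MI prednisone. A pair of facts about the libraries touches the results.

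MI vehicle library 3 stood apart. Its 7 T cell markers summed to 578.7 TPM, against 2.62 to 29.5 in the other 11 libraries, and its 4 B cell markers to 130.8 against at most 15.75. The 3 genes listed as plasmacytoid dendritic cell markers summed to 63.59 TPM there, against at most 4.25. That sum rested mostly on Ccr9 (39.66 TPM) and Spib (19.01 TPM), with Siglech at 4.92 TPM. Which cells Ccr9 and Spib came from cannot be told in bulk tissue. The library had 14307 genes at 1 TPM or more, against 11690 to 12772. Results that rest on it are given with and without it below, and its part in them beyond that was not tested. The second fact concerns all 3 MI prednisone libraries. Their values fell with transcript length, at a rank correlation across genes of -0.38, -0.40 and -0.25 with the deviation from the gene mean, against -0.12 to 0.24 in the other libraries. Transcripts listed as retained-intron took 3.61% to 4.72% of the TPM of nuclear protein-coding genes there and 2.62% to 3.21% elsewhere.

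In sham vehicle hearts the members spanned a wide range. Ifi27l2a, a small membrane protein related to Ifi27, and Ifitm3, which blocks virus entry at endosomes, were the most abundant at 145 ± 67.3 and 102 ± 9.59 TPM (SD, n = 3), followed by Ifi27 at 37.7 ± 10.2 and Bst2 at 24.5 ± 2.45 TPM. The order among Ifi27l2a, Ifitm3 and Ifi27 did not hold in every mouse: mouse 3 had 70.1 TPM of Ifi27l2a and 92.1 TPM of Ifitm3. At the low end stood Oas2 at 1.32 ± 0.228 TPM and Mx1 at 0.505 ± 0.0416 TPM. Mx1, of the GTPase genes, reached 1 TPM in 1 library only, at 2.78 TPM in MI vehicle library 3, and was not tested. Its most abundant transcript is listed in a class other than protein coding. The other 35 members passed the filter of 1 TPM in at least 3 of the 12 libraries, and each of them also did so among the 9 libraries outside MI vehicle.

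After MI in vehicle mice, 15 of the interferon-stimulated genes rose, among them members of the IFIT and OAS families, Isg15 and both membrane restriction factors. Of the 35 tested members, 15 were called higher and 0 lower at an adjusted p under 0.05 (limma on log2(TPM + 1), Benjamini-Hochberg over 13158 genes), where the background was 15.1% of all genes called higher and 0.904% called lower. The 3 largest called rises were in Zbp1, a sensor of left-handed nucleic acid, at 1.43 ± 0.39 (SE), limma adjusted p = 0.0367, Oasl2, an OAS-like protein, at 1.19 ± 0.25 (SE), limma adjusted p = 0.0164, and Trim30a, a ubiquitin ligase family member, at 1.11 ± 0.24 (SE), limma adjusted p = 0.0184, all on the log2 scale. The others called higher were Ifit1, Ifit2, Ifit3, Isg15, Oas1a, Irf7, Ddx58, Bst2, Rtp4, Ifitm3, Ifi35 and Eif2ak2. All 35 changes were positive, with a median of 0.66 against 0.39 over all genes. After each library was rescaled by its median ratio the median of all genes moved to 0.02, that of the members to 0.33, and 30 of the 35 stayed positive, but only 4 were still called higher (Oasl2, Ddx58, Ifitm3 and Trim30a), where 3.77% of all genes were. The transcript-length correction left 6 calls, these 4 with Irf7 and Bst2, where 4.27% of all genes were called. The calls also depended on single control mice: without sham vehicle mouse 3 the count was 0, and without sham vehicle mouse 1 it was 1, at member medians of 0.60 and 0.74. A fit on the sham vehicle and MI vehicle mice alone called 0 members.

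The rise was smaller without library 3. That library held the highest value of 31 members, as it did for 66.1% of all tested genes, and the members stood there at a median of 1.68 times the mean of libraries 1 and 2, against 1.46 times over all genes. Without it, 6 members were called higher (Ifit2, Oasl2, Irf7, Ddx58, Ifitm3 and Trim30a), where 6.92% of all genes were, and the median was 0.45 against 0.19. In libraries 1 and 2 both values lay above all 3 sham vehicle libraries for 26 of the 35 members, and for 41.5% of all tested genes. The sum of the 15 macrophage markers, none at 0 in any library, moved with the group. It was 379.7 to 524.1 TPM in sham vehicle, 418.4 to 560.4 in sham prednisone, 811.4 to 1742 in MI vehicle and 427.0 to 763.2 in MI prednisone. Lyz2 gave the largest part of it, 973.4 TPM in MI vehicle library 3. Ptprc stood at 3.98 and 5.97 TPM in MI vehicle libraries 1 and 2, within its sham vehicle range of 1.74 to 6.53 TPM. In MI prednisone the means of Ptprc, Adgre1, Csf1r and Itgam lay below those of sham vehicle, and the means of the other macrophage markers above. The 5 fibroblast markers summed to 307.7 to 398.7 TPM in sham vehicle, 327.8 to 392.1 in sham prednisone, 639.1 to 734.8 in MI vehicle and 227.4 to 388.6 in MI prednisone. For the 7 endothelial markers the sums were 175.8 to 197.9, 208.6 to 241.3, 235.3 to 337.6 and 195.7 to 224.6 TPM in the same order. Of these, Cldn5 had a higher mean in MI prednisone (30.7 TPM) than in MI vehicle (26.0 TPM), and the others a lower one. The sum of the 7 cardiomyocyte markers moved the other way, with 31850 to 33637, 32787 to 37823, 22568 to 28246 and 32653 to 35352 TPM. Single markers differed in MI prednisone. Ryr2, Pln and Actc1 had their lowest group means there, at 30.2, 1621 and 4474 TPM. Myl2, Tnni3 and Tnnt2 had their highest, at 13978, 4781 and 6338 TPM, and Myh6 lay between its MI vehicle and sham means. The part of all these markers in the members' values was not tested, and in bulk tissue fewer cells of a type and less RNA per cell cannot be told apart.

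**Figure D1:**
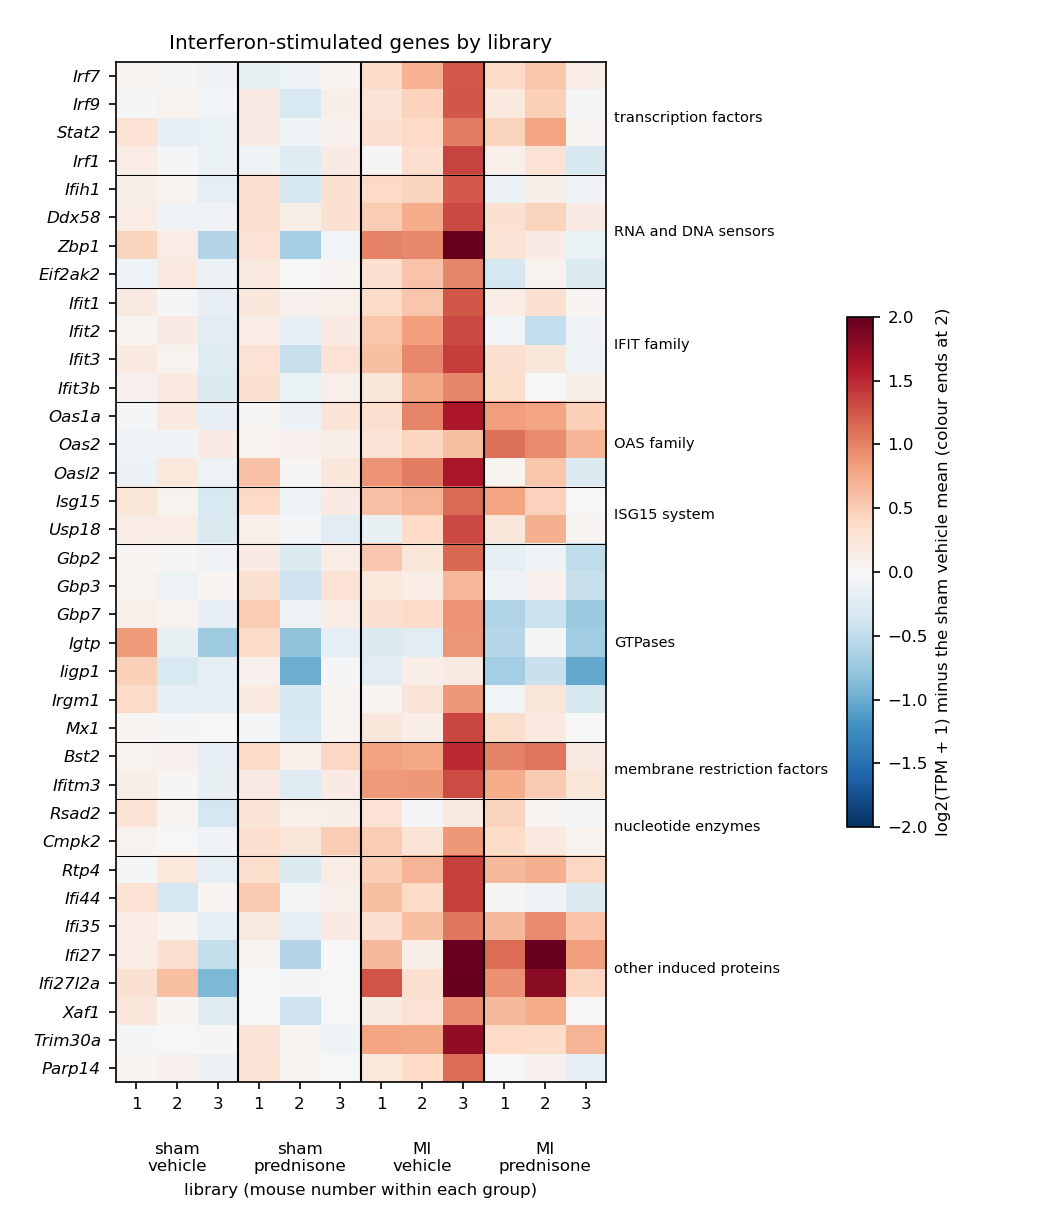
Each cell is the log2(TPM + 1) of a member in a library minus the mean of the 3 sham vehicle libraries, with the 36 members in rows by role and the 12 libraries in columns by group, and the colour scale ends at 2. Most rows are red in MI vehicle, most strongly in library 3, and most rows are paler in MI prednisone, with Oas2 and Ifi27 darker there.

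Under prednisone the change after MI was small and mixed before rescaling, and the calls varied with the processing. Only 3 members were called higher in MI prednisone than in sham prednisone: Ifi27, a small membrane protein, at 1.52 ± 0.45 (SE), limma adjusted p = 0.0394, Oas2, which makes an oligoadenylate messenger, at 0.81 ± 0.16 (SE), limma adjusted p = 0.00725, and Ifi35 at 0.67 ± 0.19 (SE), limma adjusted p = 0.037. The single member called lower was the guanylate-binding protein Gbp7 at -0.77 ± 0.20 (SE), limma adjusted p = 0.0247. Over all genes 2.73% were called higher and 14.1% lower. The members' median was 0.07 against -0.06, and 21 of 35 changes were positive. Leaving MI vehicle library 3 out of the shared estimate of spread raised the calls to 9 higher (with Oas1a, Irf7, Rtp4, Xaf1, Ifitm3 and Trim30a) and 1 lower at unchanged medians. Rescaling gave 10 higher and 1 lower. The members' rescaled median difference from the sham vehicle mean was 0.35, 0.26 and 0.08 in the MI prednisone libraries. It was 0.23, 0.21 and 0.46 in those of MI vehicle and 0.18, -0.15 and -0.01 in those of sham prednisone. After the transcript-length correction Oas1a, Oas2, Irf7, Ifi27, Ifi35 and Trim30a were called higher. Gbp7 was then not called, at -0.45 ± 0.15, limma adjusted p = 0.0727. The shares of 2.73% and 14.1% belong to the fit on all libraries without these changes, and those under each change are not given. When only transcripts listed as protein coding were summed, none of the rises in Ifi27, Oas2 and Ifi35 was called, as described below. Leaving out any 1 of the sham prednisone mice, or MI prednisone mouse 1 or 2, left 1 or 2 calls.

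Comparing prednisone with vehicle in infarcted hearts, 12 members were called lower and 1 higher. This lies near the background, since 34.9% of all genes were called lower and 2.5% higher, and the members' median of -0.50 was close to the -0.41 of all genes. The 3 largest called falls were in Zbp1 at -1.32 ± 0.39 (SE), limma adjusted p = 0.0223, Gbp7 at -1.11 ± 0.20 (SE), limma adjusted p = 0.0027, and Ifit2, a tetratricopeptide protein that binds foreign RNA, at -1.10 ± 0.21 (SE), limma adjusted p = 0.00351. The other called falls were in Oasl2, Gbp2, Ifi44, Ifit3, Eif2ak2, Ifih1, Parp14, Ddx58 and Ifitm3, and the called rise was in Oas2, at 0.47 ± 0.16 (SE), limma adjusted p = 0.0409. Of the 15 members called higher after MI in vehicle mice, 7 were called lower with prednisone (Ddx58, Eif2ak2, Ifit2, Ifit3, Ifitm3, Oasl2 and Zbp1). Both comparisons use the same MI vehicle mice with opposite sign, so some overlap is built in, and its share over all genes is not given. Without library 3, 5 were called lower (Ifit2, Oasl2, Gbp2, Gbp7 and Eif2ak2) and Oas2 higher, the medians became -0.21 for the members and -0.22 for all genes, and 10 members had a positive change in place of 4. After rescaling, 6 were lower and 2 higher, with medians of -0.08 and -0.02. The shares of 34.9% and 2.5% belong to the fit on all libraries without these changes, and those under each change are not given. Without MI prednisone mouse 2 or 3 the calls numbered 6, and the fit on the MI mice alone called 1.

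In sham hearts no change of a member with prednisone was detectable. The limma fit called 0 of 35, 0 had an unadjusted p under 0.05, and the fits with other scalings or transcript choices also called 0. Over all genes 0.0532% were called higher and 0.0608% lower. Changes ran from -0.31 in Iigp1 to 0.36 in Cmpk2, with a median of 0.06 against 0.07 over all genes.

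The difference between the prednisone effects after MI and after sham, the interaction, was called in 4 members, all negative: Oasl2 at -1.36 ± 0.35 (SE), limma adjusted p = 0.023, Gbp7 at -1.29 ± 0.29 (SE), limma adjusted p = 0.0139, Ifit2 at -1.15 ± 0.30 (SE), limma adjusted p = 0.0241, and Eif2ak2, the kinase PKR that halts translation, at -0.88 ± 0.26 (SE), limma adjusted p = 0.038. Background calls were 20.7% lower and 0.54% higher, and the members' median was -0.54 against -0.48 over all genes. The 4 calls held without MI vehicle library 3, where Ddx58 joined them at -0.58 ± 0.18, limma adjusted p = 0.04. A single call was left without sham vehicle mouse 1 or 3 or sham prednisone mouse 1 or 3, and 11 were made without MI vehicle mouse 1. With the most abundant transcript of each gene, Oasl2 (-0.74 ± 0.28, limma adjusted p = 0.0774) and Gbp7 (-0.60 ± 0.24, limma adjusted p = 0.0848) were not called. Ifit2 (-0.99, limma adjusted p = 0.0315) and Eif2ak2 (-1.05, limma adjusted p = 0.0132) stayed called there, and Ddx58 was called too (-1.53, limma adjusted p = 0.0179). After rescaling Gbp7 remained, at -0.85 ± 0.21, limma adjusted p = 0.0332, and Oas2 was called positive at 0.74 ± 0.19, limma adjusted p = 0.0396. None of the 4 passed after the transcript-length correction, under which Oas2 was the single call, at 1.02 ± 0.22, limma adjusted p = 0.0372. Both background shares, 20.7% and 0.54%, belong to the fit on all libraries without these changes, and those under each of them are not given.

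**Figure D2:**
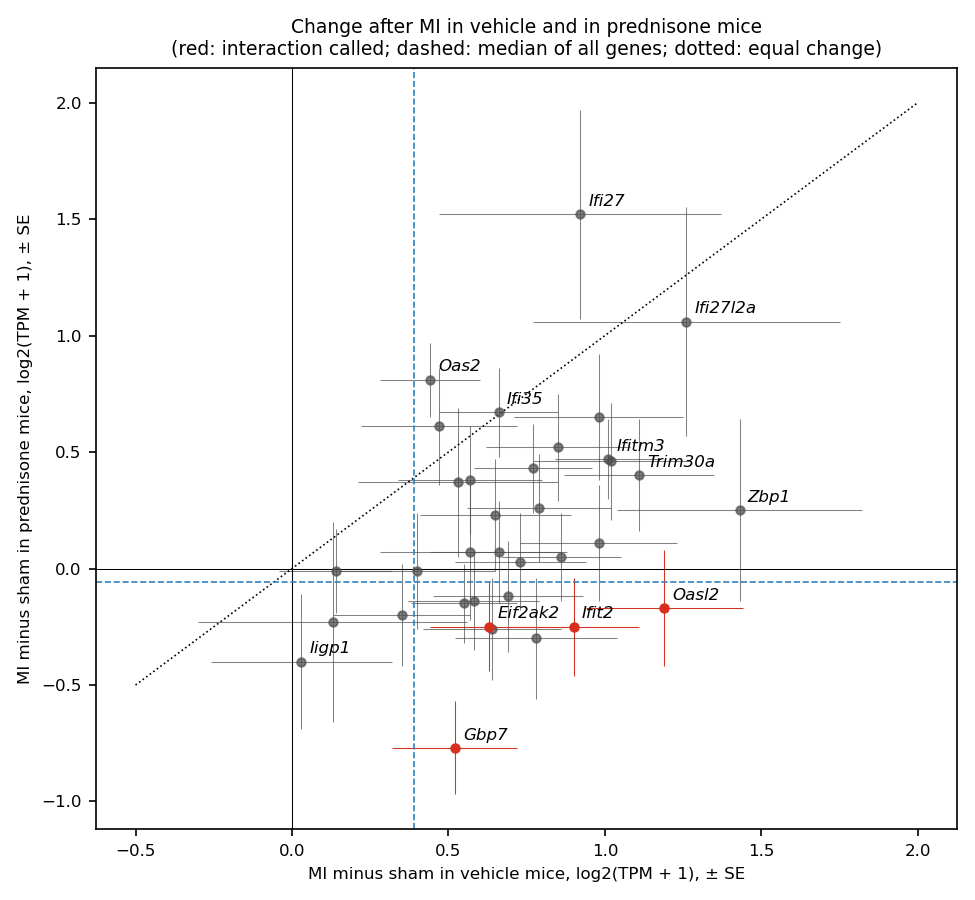
Each point is 1 of the 35 tested members, with the log2 change after MI in vehicle mice on the horizontal axis and in prednisone mice on the vertical axis, error bars of 1 SE, dashed lines at the medians of all genes (0.39 and -0.06) and a dotted line of equal change. All points lie to the right of 0 and most lie under the dotted line, among them the 4 red members with a called interaction, while Ifi27 (1.52) and Oas2 (0.81) lie above it.

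Among the transcription factors, Irf7, which amplifies the type I response, rose after MI in vehicle mice. Irf7 stood at 7.67, 7.51 and 6.97 TPM in sham vehicle mice, 6.54, 6.84 and 7.64 TPM in sham prednisone mice, 9.98, 12.5 and 18.6 TPM in MI vehicle mice and 9.88, 11.3 and 8.26 TPM in MI prednisone mice. All 3 MI vehicle values lay above every sham value, and so did the MI prednisone values, which overlapped the lower part of MI vehicle. The rise was 0.77 ± 0.19, limma adjusted p = 0.0273 in vehicle mice and 0.54 ± 0.14, limma adjusted p = 0.045 without library 3, and the difference in prednisone mice was 0.43 ± 0.19, limma adjusted p = 0.159. Irf9, the DNA-binding part of the ISRE complex, stood at 6.57, 6.997 and 6.398 TPM in sham vehicle mice, 7.55, 5.21 and 7.28 TPM in sham prednisone mice, 8.17, 9.48 and 17.04 TPM in MI vehicle mice and 7.79, 9.68 and 6.54 TPM in MI prednisone mice. Its MI vehicle values also lay above all sham vehicle values, by a wide margin in library 3 only, and the difference of 0.65 ± 0.24, limma adjusted p = 0.0732, was not called. Stat2, the partner of Irf9, stood at 7.13, 4.94 and 5.04 TPM in sham vehicle mice, 6.42, 5.23 and 6.06 TPM in sham prednisone mice, 7.197, 7.701 and 12.4 TPM in MI vehicle mice and 7.995, 10.5 and 5.92 TPM in MI prednisone mice. MI vehicle library 1 was level with sham vehicle mouse 1, MI prednisone spanned the sham and MI vehicle ranges, and no comparison of Stat2 was called (0.57 ± 0.23, limma adjusted p = 0.0912 after MI in vehicle mice). Irf1, the factor with the GAS match and no ISRE match, stood at 15.3, 13.5 and 12.3 TPM in sham vehicle mice, 13.01, 11.3 and 15.4 TPM in sham prednisone mice, 13.9, 17.4 and 36.3 TPM in MI vehicle mice and 14.7, 16.9 and 10.8 TPM in MI prednisone mice. Apart from the 36.3 TPM of library 3 the Irf1 groups overlapped, and the difference of 0.57 after MI in vehicle mice became 0.17 without that library.

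All 4 nucleic acid sensors were called lower with prednisone after MI, a comparison in which 34.9% of all genes were, and 3 of these calls were lost without library 3. Ddx58, the RNA sensor RIG-I, stood at 4.29, 3.505 and 3.51 TPM in sham vehicle mice, 4.94, 4.22 and 4.89 TPM in sham prednisone mice, 5.77, 6.98 and 10.9 TPM in MI vehicle mice and 4.896, 5.47 and 4.35 TPM in MI prednisone mice. Every MI vehicle value exceeded all others, and MI prednisone lay above sham vehicle and overlapped sham prednisone. Ddx58 rose by 0.86 ± 0.19, limma adjusted p = 0.0196 in vehicle mice and differed between MI groups by -0.55 ± 0.19, limma adjusted p = 0.0425. Eif2ak2 stood at 3.56, 4.56 and 3.45 TPM in sham vehicle mice, 4.51, 3.79 and 3.94 TPM in sham prednisone mice, 5.08, 6.19 and 8.499 TPM in MI vehicle mice and 2.79, 4.08 and 2.99 TPM in MI prednisone mice. Here too every MI vehicle value exceeded all others, and 2 of the 3 MI prednisone values lay below every sham value. Its change after MI was 0.63 ± 0.19, limma adjusted p = 0.0453 in vehicle mice and -0.25 ± 0.19, limma adjusted p = 0.394 in prednisone mice. Zbp1 stood at 2.86, 2.13 and 0.885 TPM in sham vehicle mice, 2.47, 0.774 and 1.74 TPM in sham prednisone mice, 4.66, 4.52 and 13.2 TPM in MI vehicle mice and 2.44, 2.17 and 1.59 TPM in MI prednisone mice. Its MI vehicle values lay above those of every other library, while the remaining groups overlapped and spread widely, down to 0.77 TPM. Without library 3 the Zbp1 differences were 0.98 ± 0.32, limma adjusted p = 0.0855 after MI and -0.88 ± 0.32, limma adjusted p = 0.0596 with prednisone, and neither was called. Ifih1, the sensor MDA5, differed by -0.71 ± 0.24, limma adjusted p = 0.0413 between the MI groups and by -0.44 (limma adjusted p = 0.112) without library 3. Of these 4, Eif2ak2 alone stayed called lower without library 3.

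The IFIT proteins bind viral RNA ends and limit its translation. Ifit1, with 2 ISRE matches at -104 and -85, stood at 2.76, 2.24 and 1.96 TPM in sham vehicle mice, 2.86, 2.49 and 2.56 TPM in sham prednisone mice, 3.31, 3.84 and 6.83 TPM in MI vehicle mice and 2.66, 3.09 and 2.39 TPM in MI prednisone mice. Every MI vehicle value lay above all others, but those of libraries 1 and 2 by little, and the rise of 0.73 ± 0.21, limma adjusted p = 0.0421, became 0.47 ± 0.14, limma adjusted p = 0.0678 without library 3. Ifit2 stood at 3.99, 4.42 and 3.15 TPM in sham vehicle mice, 4.33, 3.29 and 4.38 TPM in sham prednisone mice, 6.06, 7.53 and 11.01 TPM in MI vehicle mice and 3.66, 2.44 and 3.57 TPM in MI prednisone mice. The MI vehicle group did not overlap any other, and MI prednisone lay at or below the sham level. Ifit2 rose by 0.90 ± 0.21, limma adjusted p = 0.0232 after MI in vehicle mice, and without library 3 its fall with prednisone was -0.89 ± 0.18, limma adjusted p = 0.00539. Ifit3 stood at 8.15, 7.39 and 5.74 TPM in sham vehicle mice, 8.804, 4.82 and 8.81 TPM in sham prednisone mice, 11.1, 14.6 and 20.02 TPM in MI vehicle mice and 9.01, 8.36 and 6.57 TPM in MI prednisone mice. MI vehicle was again clear of every other group, and MI prednisone overlapped both sham groups, with a rise of 0.98 ± 0.25, limma adjusted p = 0.0281 in vehicle mice and a difference of -0.83 ± 0.25, limma adjusted p = 0.0234 between the MI groups. Without library 3 neither was called, at 0.78 ± 0.24, limma adjusted p = 0.0746 and -0.63 ± 0.24, limma adjusted p = 0.0703. Ifit3b, its near copy, changed by 0.66 and -0.50 in the same comparisons and was not called with all libraries and all transcripts summed. In the fit on protein-coding transcripts its rise was called, at 0.66 ± 0.21, limma adjusted p = 0.0461. Ifit3b has a single transcript, so its own values were the same in both fits and only those of other genes differed.

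The OAS family makes an oligoadenylate messenger that activates an RNA-cutting enzyme, and with prednisone after MI Oasl2 was called lower and Oas2 higher. Oasl2 stood at 6.58, 8.53 and 6.66 TPM in sham vehicle mice, 11.3, 7.38 and 8.63 TPM in sham prednisone mice, 14.3, 15.7 and 24.5 TPM in MI vehicle mice and 7.55, 11.1 and 5.73 TPM in MI prednisone mice. MI vehicle was clear of every other group, and MI prednisone overlapped both sham groups. The fall with prednisone after MI was -1.08 ± 0.25, limma adjusted p = 0.00752, and -0.85 ± 0.23, limma adjusted p = 0.019 without library 3. With its most abundant transcript alone the fall was -0.50 ± 0.20, limma adjusted p = 0.0647, and not called. Oas1a, with 2 overlapping ISRE matches at -20 and -14, stood at 1.68, 2.13 and 1.43 TPM in sham vehicle mice, 1.77, 1.51 and 2.25 TPM in sham prednisone mice, 2.44, 4.38 and 7.35 TPM in MI vehicle mice and 3.88, 3.73 and 2.78 TPM in MI prednisone mice. Both MI groups lay above both sham groups and overlapped each other. Oas1a rose by 0.98 ± 0.27, limma adjusted p = 0.0392 in vehicle mice, a call lost without library 3 (0.66 ± 0.21, limma adjusted p = 0.0824). The difference of 0.65 ± 0.27, limma adjusted p = 0.134 in prednisone mice was called without library 3 (0.65 ± 0.19, limma adjusted p = 0.0259). Oas2 stood at 1.18, 1.21 and 1.58 TPM in sham vehicle mice, 1.44, 1.46 and 1.53 TPM in sham prednisone mice, 1.81, 2.11 and 2.53 TPM in MI vehicle mice and 3.96, 3.44 and 2.701 TPM in MI prednisone mice. It was the 1 member whose MI prednisone values all lay above all MI vehicle values. With protein-coding transcripts alone the difference between the MI groups was 0.11 ± 0.15, limma adjusted p = 0.564, and not called.

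Of the ISG15 system, Isg15 is a ubiquitin-like modifier and Usp18 removes it and damps the receptor. Isg15 stood at 10.5, 9.13 and 6.82 TPM in sham vehicle mice, 11.8, 8.08 and 9.82 TPM in sham prednisone mice, 13.5, 14.4 and 20.2 TPM in MI vehicle mice and 15.7, 12.3 and 8.71 TPM in MI prednisone mice. MI vehicle lay above both sham groups, and MI prednisone ranged from the sham level to above MI vehicle library 2. The rise of 0.79 ± 0.23, limma adjusted p = 0.0429 in vehicle mice became 0.63 ± 0.23, limma adjusted p = 0.119 without library 3. Usp18 was not called in any comparison (0.53 ± 0.32, limma adjusted p = 0.211 after MI in vehicle mice), with 7.59 TPM in library 3 against 1.81 to 4.62 TPM elsewhere.

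The interferon-inducible GTPases, which attack the membranes of intracellular pathogens and answer mainly to interferon gamma, gave 0 calls among the 6 tested after MI in vehicle mice, where 15.1% of all genes were called higher. With protein-coding transcripts alone Gbp2 was called, at 0.66 ± 0.22, limma adjusted p = 0.0471. Gbp7, with 1 ISRE and 2 GAS matches, stood at 4.55, 4.42 and 3.605 TPM in sham vehicle mice, 6.37, 3.802 and 4.72 TPM in sham prednisone mice, 5.41, 5.66 and 8.63 TPM in MI vehicle mice and 2.42, 2.86 and 2.08 TPM in MI prednisone mice. MI prednisone lay below all 9 other libraries. Its fall was called against sham prednisone (-0.77) and against MI vehicle (-1.11), while the change after MI in vehicle mice was 0.52 ± 0.20, limma adjusted p = 0.0833. Gbp2 stood at 10.9, 10.8 and 9.91 TPM in sham vehicle mice, 11.8, 8.43 and 11.7 TPM in sham prednisone mice, 15.6, 12.6 and 24.5 TPM in MI vehicle mice and 9.1, 9.86 and 7.104 TPM in MI prednisone mice. MI vehicle lay above the other groups, and Gbp2 differed between the MI groups by -0.90 ± 0.22, limma adjusted p = 0.00931, and by -0.65 ± 0.17, limma adjusted p = 0.0158 without library 3. Igtp, a GTPase with adjacent GAS and ISRE matches, stood at 22.99, 10.9 and 7.12 TPM in sham vehicle mice, 16.01, 6.61 and 10.6 TPM in sham prednisone mice, 9.98, 10.3 and 23.3 TPM in MI vehicle mice and 7.89, 11.9 and 7.17 TPM in MI prednisone mice. All groups overlapped, sham vehicle mouse 1 was nearly as high as MI vehicle library 3, and the change after MI in vehicle mice was 0.13, or -0.25 without library 3. Gbp3, Iigp1 and Irgm1 were called in no comparison of the sums over all transcripts, with changes of 0.35, 0.03 and 0.40 after MI in vehicle mice and -0.49, -0.74 and -0.44 with prednisone after MI.

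Both membrane restriction factors rose after MI in vehicle mice. Ifitm3 stood at 111, 104 and 92.1 TPM in sham vehicle mice, 115, 85.7 and 114 TPM in sham prednisone mice, 185, 187 and 253 TPM in MI vehicle mice and 172, 147 and 121 TPM in MI prednisone mice. Libraries 1 and 2 of MI vehicle, at 185 and 187 TPM, were already clear of the sham groups, and the MI prednisone values lay between the sham and MI vehicle ranges without overlap. The Ifitm3 rise was 1.01 ± 0.17, limma adjusted p = 0.00922, and 0.86 ± 0.17, limma adjusted p = 0.0227 without library 3, and after MI its level differed with prednisone by -0.50 ± 0.17, limma adjusted p = 0.0389, a call lost without library 3 (-0.36 ± 0.17, limma adjusted p = 0.126). Bst2, the tetherin that holds budding virus at the cell surface, stood at 25.8, 26.1 and 21.7 TPM in sham vehicle mice, 31.7, 26.2 and 32.8 TPM in sham prednisone mice, 43.4, 42.7 and 70.6 TPM in MI vehicle mice and 49.4, 52.6 and 27.7 TPM in MI prednisone mice. MI vehicle lay above both sham groups, while 2 of the 3 MI prednisone mice were above MI vehicle libraries 1 and 2 and the other was within the sham range. Bst2 rose by 1.02 ± 0.25, limma adjusted p = 0.0245 in vehicle mice and by 0.79 (limma adjusted p = 0.0628) without library 3, where it was not called.

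The nucleotide enzymes Rsad2 (viperin) and Cmpk2 are adjacent genes on chromosome 12 that are usually induced together. Neither was called in any comparison of the fit on all libraries with all transcripts summed. In the fit on protein-coding transcripts Cmpk2 was called after MI in vehicle mice (0.55 ± 0.17, limma adjusted p = 0.0383) and in the interaction (-0.70 ± 0.24, limma adjusted p = 0.043). Cmpk2 too has a single transcript, so its own values were the same in both fits. Cmpk2 stood at 2.16, 2.002 and 1.86 TPM in sham vehicle mice, 2.79, 2.54 and 3.27 TPM in sham prednisone mice, 3.296, 2.61 and 4.46 TPM in MI vehicle mice and 2.86, 2.44 and 2.15 TPM in MI prednisone mice. Of the 9 other values all but that of MI prednisone mouse 3 lay above those of sham vehicle, and the interaction was -0.70 ± 0.24, limma adjusted p = 0.0605. Rsad2 ranged from 4.28 to 8.04 TPM over all libraries, both extremes lying outside MI vehicle, and changed by 0.14 ± 0.18, limma adjusted p = 0.53 after MI in vehicle mice.

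Of the other induced proteins, Trim30a stood at 2.32, 2.43 and 2.47 TPM in sham vehicle mice, 3.08, 2.56 and 2.204 TPM in sham prednisone mice, 4.89, 4.805 and 10.6 TPM in MI vehicle mice and 3.504, 3.38 and 4.46 TPM in MI prednisone mice. MI vehicle was clear of every other group, and the rise was 0.78 ± 0.14, limma adjusted p = 0.0181 without library 3. Ifi44, a cytoplasmic protein, stood at 2.09, 1.02 and 1.63 TPM in sham vehicle mice, 2.64, 1.48 and 1.74 TPM in sham prednisone mice, 2.87, 2.33 and 5.53 TPM in MI vehicle mice and 1.57, 1.42 and 1.101 TPM in MI prednisone mice. MI vehicle overlapped sham prednisone, and the difference between the MI groups was -0.89 ± 0.26, limma adjusted p = 0.0224, or -0.61 ± 0.22, limma adjusted p = 0.0541 without library 3. Ifi35 stood at 11.7, 10.8 and 9.09 TPM in sham vehicle mice, 11.99, 9.24 and 11.9 TPM in sham prednisone mice, 13.4, 16.5 and 22.98 TPM in MI vehicle mice and 17, 21.3 and 16.1 TPM in MI prednisone mice. In both treatments every MI value lay above every sham value, and the change after MI was 0.66 in vehicle and 0.67 in prednisone mice, both called. Ifi27 stood at 41.01, 45.9 and 26.2 TPM in sham vehicle mice, 38.1, 24.2 and 36.7 TPM in sham prednisone mice, 57.9, 40.6 and 148 TPM in MI vehicle mice and 81.2, 159 and 66.1 TPM in MI prednisone mice. All MI prednisone values exceeded all sham values, and MI vehicle overlapped sham vehicle. Ifi27l2a, its neighbour, was not called despite changes of 1.26 in vehicle and 1.06 in prednisone mice, and its MI vehicle values ranged from 166 to 608 TPM. Rtp4, a chaperone for receptors, rose by 0.85 ± 0.23, limma adjusted p = 0.0364 in vehicle mice and differed by 0.59 ± 0.19, limma adjusted p = 0.0792 without library 3. Parp14, an ADP-ribose transferase, differed between the MI groups by -0.61 ± 0.21, limma adjusted p = 0.0414, and by -0.34 ± 0.13, limma adjusted p = 0.0726 without library 3. Xaf1 was called in no comparison of the fit on all libraries.

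**Figure D3:**
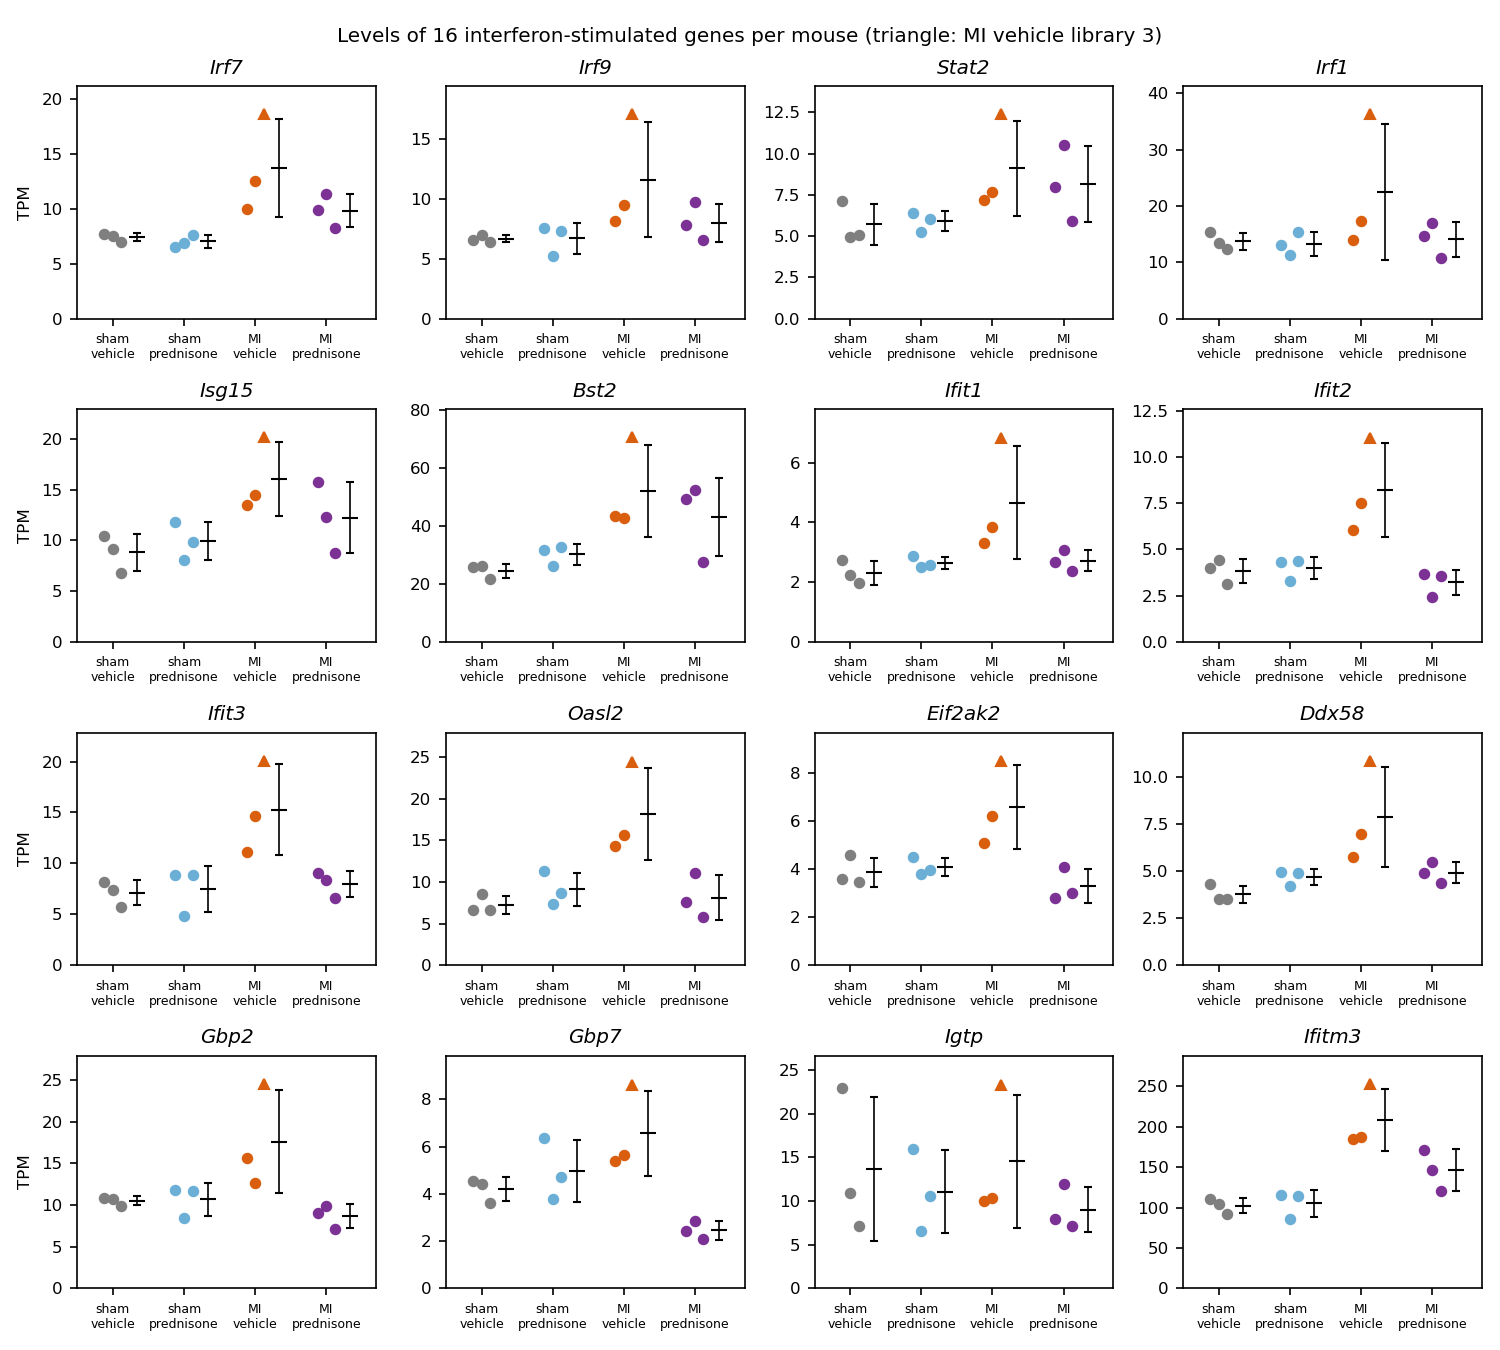
TPM in each mouse (points, linear axes from 0) of 16 members in the 4 groups, with the group mean and SD beside the points and MI vehicle library 3 as a triangle. The triangle is the highest point in each panel. MI vehicle circles lie above all sham points except in Irf1, Gbp7 and Igtp, though in Stat2 by little (7.197 against 7.134 TPM). Gbp7 is lowest in MI prednisone (2.08 to 2.86 TPM).

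The transcripts behind the gene sums differed between groups in several members. Retained-intron transcripts, which keep an intron and are not expected to give the full protein, took 8.61%, 9.82% and 8.83% of the members' TPM in MI prednisone and 2.72% to 4.83% in the other 9 libraries. Most of that was Ifi27: without it the share was 1.68% to 2.00% in MI prednisone and 1.04% to 2.37% elsewhere. Of the 147 transcript rows of the members, 37 in 16 members are retained-intron rows in GENCODE M21, and 81 are protein coding.

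For Ifi27, the protein-coding transcript Ifi27-205 stood at 22.1, 15.6 and 9.74 TPM in sham vehicle mice, 13.6, 7.51 and 12.2 TPM in sham prednisone mice, 18.4, 17.3 and 62.9 TPM in MI vehicle mice and 15.1, 41.3 and 16.5 TPM in MI prednisone mice. The retained-intron transcript Ifi27-209 stood at 7.2, 9.92 and 4.98 TPM in sham vehicle mice, 7.1, 5.13 and 9.97 TPM in sham prednisone mice, 11.3, 5.99 and 23 TPM in MI vehicle mice and 36.4, 60.7 and 24.3 TPM in MI prednisone mice. MI prednisone lay above every other library in the second and overlapped MI vehicle in the first. For Oas2, the protein-coding Oas2-201 was at 1.51, 2.11 and 0.95 TPM in MI vehicle and 1.08, 2.26 and 0.47 TPM in MI prednisone, and its change between them was -0.20 (limma adjusted p = 0.561), the reverse of the gene sum. The retained-intron Oas2-204 was listed at 0 in all 6 sham libraries and in MI vehicle libraries 1 and 2, at 0.31 TPM in library 3 and at 1.59, 0.63 and 0.95 TPM in MI prednisone. Over protein-coding transcripts alone, the changes after MI in prednisone mice were 0.41 ± 0.15, limma adjusted p = 0.0849, for Oas2, 0.98 ± 0.49, limma adjusted p = 0.185, for Ifi27, and 0.50 ± 0.17, limma adjusted p = 0.0624, for Ifi35.

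In Ddx58, Oasl2 and Gbp7 single protein-coding transcripts were low in MI prednisone. These transcripts, like those of Oas2 and Ifi27, were picked after their values were seen. Ddx58-201 stood at 1.95, 2.23 and 1.64 TPM in sham vehicle mice, 2.13, 2.4 and 2.7 TPM in sham prednisone mice, 3.78, 3.81 and 8.56 TPM in MI vehicle mice and 0.94, 1.55 and 1.86 TPM in MI prednisone mice, and made up 68.4% of the gene in MI vehicle and 29.6% in MI prednisone. Gbp7-202, the other transcript of Gbp7 beside Gbp7-201, was at 0.05, 0.57 and 0.2 TPM in MI prednisone and 1.45 to 3.83 TPM elsewhere, while Gbp7-201 was at 2.37, 2.29 and 1.87 and 2.14 to 4.79 TPM. The protein-coding Oasl2 transcript of 632 bases was at 0.06, 0.11 and 0.66 TPM in MI prednisone and 0.35 to 6.23 TPM elsewhere. The most abundant Oasl2 transcript, Oasl2-205, is listed in a class other than protein coding. It was at 5.60, 6.55 and 3.54 TPM in MI prednisone, 6.30, 7.41 and 9.51 TPM in MI vehicle and 2.89 to 4.57 TPM in the sham groups. Over protein-coding transcripts 7 members were called lower in the interaction (Oasl2, Ddx58, Gbp7, Ifit2, Eif2ak2, Gbp2 and Cmpk2), where 30.6% of all genes were, with Oasl2 at -2.50 ± 0.49, limma adjusted p = 0.00612 and Ddx58 at -1.65 ± 0.35, limma adjusted p = 0.00809. The same sums gave 21 members called higher after MI in vehicle mice, where 22.5% of all genes were, and 16 called lower with prednisone after MI, where 46% were. Members with a single transcript, such as Cmpk2 and Ifit3b, kept their values in these sums, and their calls changed with the other genes of the fit. The share of retained introns and the slope with transcript length moved with the MI prednisone group, and their part in these differences was not tested further.

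**Figure D4:**
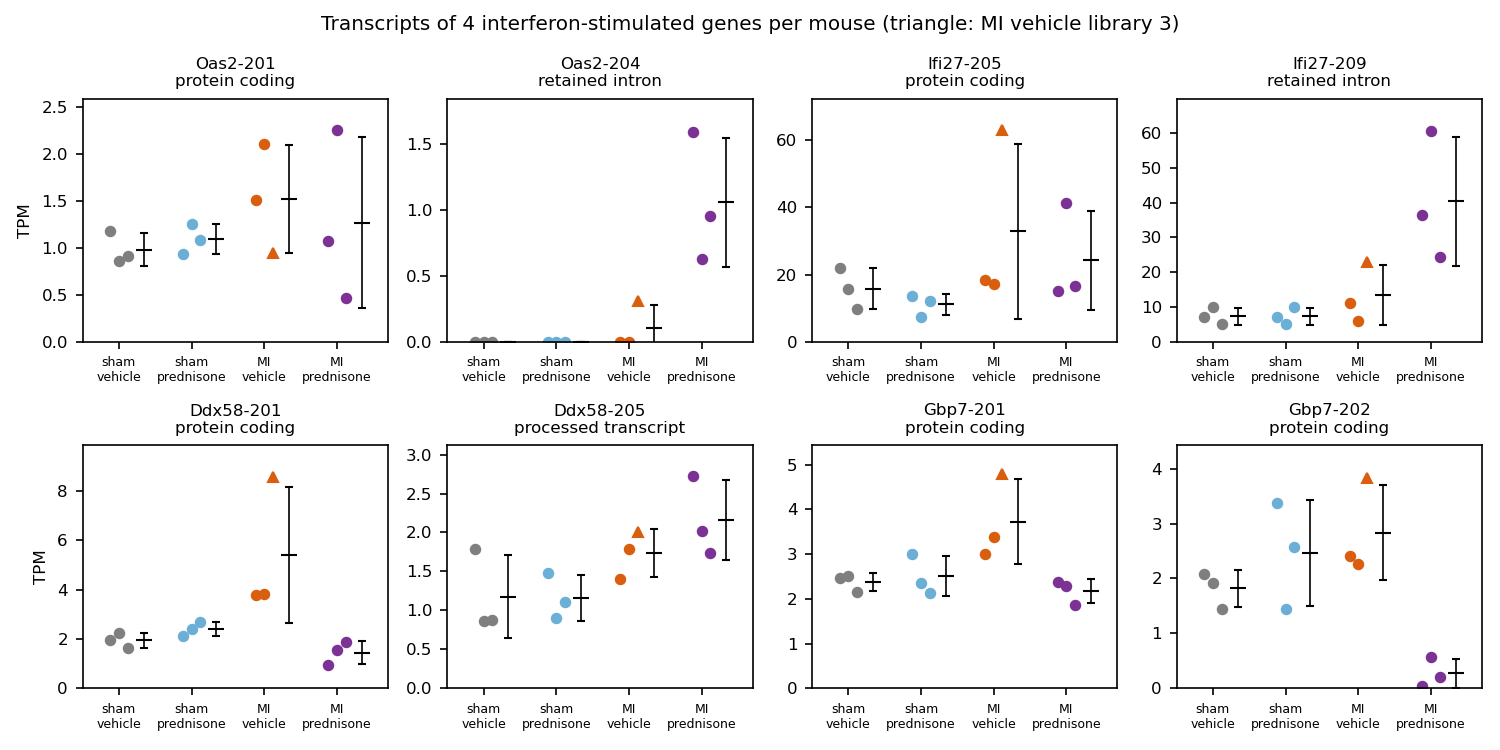
TPM in each mouse (points, linear axes from 0) of 2 transcripts each of Oas2, Ifi27, Ddx58 and Gbp7, with group means and SD, the annotated transcript class above each panel, and MI vehicle library 3 as a triangle. Oas2-204 and Ifi27-209 are highest in MI prednisone, while all Gbp7-202 points (0.05 to 0.57 TPM) and 2 of the 3 Ddx58-201 points lie below every other library there.

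The interferons themselves were barely present. None of the 10 ligand genes on the list was tested, 8 were listed at 0 in all libraries, Ifnb1 was above 0 in 1 library (0.07 TPM), and Ifng, which activated T and NK cells make, reached at most 0.49 TPM, in sham vehicle mouse 1. In MI vehicle library 3 Ifng was at 0.17 TPM.

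Receptor and kinase genes were present in every library. Of the 5 receptor genes tested, 1 was called higher after MI in vehicle mice and 3 lower with prednisone after MI, and of the 5 kinases and STATs 0 and 3, beside 15.1% of all genes called higher and 34.9% called lower in these comparisons. Without library 3 these counts were the same. Ifngr1 rose after MI in vehicle mice by 0.97 ± 0.25, limma adjusted p = 0.0314 and differed with prednisone after MI by -0.83 ± 0.25, limma adjusted p = 0.0249. Ifngr2 stood at 71.6, 64.4 and 69.98 TPM in sham prednisone, 66.6, 73.2 and 62.8 in MI vehicle and 40.1, 32.9 and 50.5 in MI prednisone, where it was lowest, and its interaction was -0.73 ± 0.20, limma adjusted p = 0.0292. Ifnar1 changed with prednisone after MI by -0.68 ± 0.21, limma adjusted p = 0.0273 as a log2 change, and Ifnar2 differed by -0.41 ± 0.18, limma adjusted p = 0.1. Jak1, shared by both pathways, stood at 30.4, 33.4 and 33.9 TPM in sham prednisone, 30.2, 30.2 and 56.03 in MI vehicle and 17.5, 16 and 20.5 in MI prednisone. MI prednisone lay below all other libraries, with an interaction of -1.15 ± 0.29, limma adjusted p = 0.0203. For Jak2 the interaction was -0.99 ± 0.29, limma adjusted p = 0.0355, with 4.403, 4.03 and 4.53 TPM in MI prednisone against 5.74 to 14.3 TPM elsewhere. Tyk2 was called in no comparison (-0.38 with prednisone after MI).

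Among the 12 tested genes of sensing and induction, Mavs, the adaptor of RIG-I and MDA5, was the single one called in the interaction, at -0.80 ± 0.19, limma adjusted p = 0.0159. Of the 7 inhibitors 4 were called lower with prednisone after MI, where 34.9% of all genes were, and 3 in the interaction, where 20.7% were, namely Socs3 at -1.24 ± 0.34, limma adjusted p = 0.0273, Usp25 at -1.45 ± 0.29, limma adjusted p = 0.0105, and Nlrx1 at -0.75 ± 0.23, limma adjusted p = 0.0427. Socs3, which blocks Jak kinases, had risen after MI in vehicle mice by 1.37 ± 0.24, limma adjusted p = 0.00989. Of 52 further interferon-stimulated genes tested, 13 were called higher and 0 lower after MI in vehicle mice, and 0 higher and 13 lower with prednisone after MI. The shares over all genes were 15.1% called higher in the first comparison and 34.9% called lower in the second, so the falls were no more frequent in the list than among all genes. After MI in prednisone mice, where 2.73% of all genes were called higher and 14.1% lower, 4 of the 52 were called higher and 3 lower. Their medians of 0.64, -0.54 and 0.20 stood beside 0.39, -0.41 and -0.06 over all genes, and those of the 35 members beside 0.66, -0.50 and 0.07. In the interaction, where 20.7% of all genes were called lower, 6 of the 52 were called, all lower: Slfn5 (-1.12), Gbp6 (-1.15), Dtx3l (-1.12), Tor3a (-0.98), the DNA sensor Ifi204 (-0.94) and the RNA sensor Znfx1 (-0.73). In the fit without library 3, 51 of them were tested and 7 were called higher after MI in vehicle mice. The share over all genes in that fit stands above, beside the members' own calls.

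**Figure D5:**
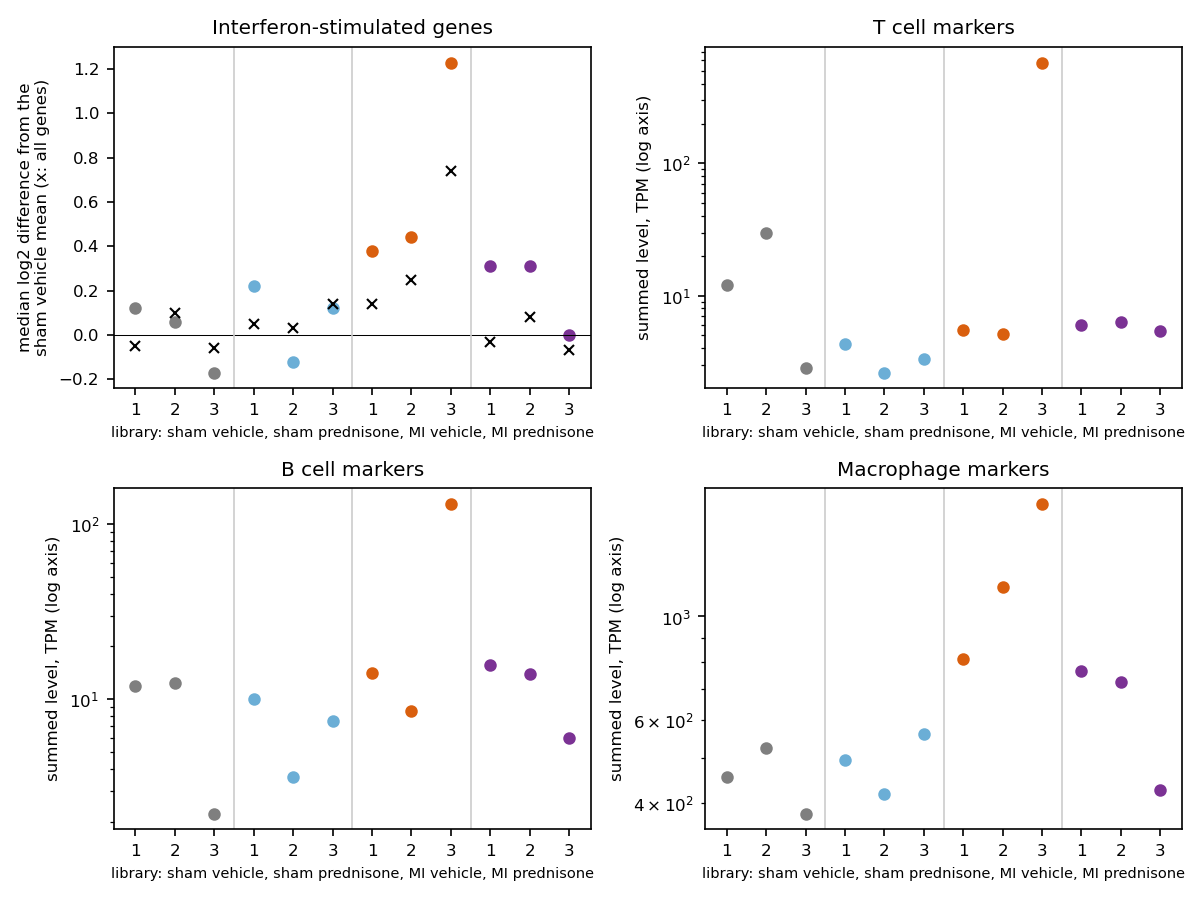
The upper left panel gives, for each of the 12 libraries, the median log2 difference of the members (circles) and of all genes (crosses) from the sham vehicle mean, and the other panels give the summed TPM of T cell, B cell and macrophage markers on log axes. Library 3 of MI vehicle is highest in all 4 panels (members 1.23, all genes 0.74, T cell markers 578.7 TPM), while libraries 1 and 2 of MI vehicle have member medians of 0.38 and 0.44 with T cell sums of 5.51 and 5.10 TPM.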

How the data were processed

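RNA was measured in myocardium of 12 mice, with libraries prepared by a stranded mRNA method, per the labels' protocols. The authors deposited TPM values for 105129 transcript rows. Per the submitters' processing notes, Trimmomatic, HISAT2, kallisto and mm10 were named, with no roles or versions. Every column sums to 1000000 TPM, so depth is unknown and a few abundant RNAs can move all others.

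TPM of all transcripts with one symbol were added up. The 13158 genes that reached 1 TPM in 3 or more libraries were fitted as log2(TPM + 1) with limma 3.58.1 in R 4.3.3 (4 group means, eBayes with trend) and adjusted by Benjamini-Hochberg over all genes, with calls at an adjusted p under 0.05. Fold changes on this scale understate those of low genes. The fit was tested on simulated data. Of the rows, 94.7% had their identifier in GENCODE M21, 97.9% of these with the same symbol, and transcript classes were matched without version (98.6%). Genes with per-mouse values were the 8 members with the lowest p in the interaction and 12 fixed members, with the 3 largest called rises and falls per comparison added. Members, gene lists and rules were chosen with earlier results of these data known. Alternatives were median-ratio rescaling, no filter, pseudocount 0.1, no trend, a replicate block, only the compared groups, the most abundant transcript, a loess correction (span 0.5) for transcript length, and each mouse left out. The combinations with library 3 left out and the sums over protein-coding transcripts were chosen after seeing the data. A gene of the pathway lists is not reported here.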

Additional observations from a re-analysis of the deposited data

Results flagged for a closer look

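The effect of prednisone differed between infarcted and sham hearts by the limma interaction test in 4 members. The difference of log2 changes, the effect after MI minus that after sham, was -1.36 in Oasl2, -1.29 in Gbp7, -1.15 in Ifit2 and -0.88 in Eif2ak2. In Oasl2 the effects were -1.08 after MI and 0.28 after sham, in Gbp7 -1.11 and 0.18, in Ifit2 -1.10 and 0.04, and in Eif2ak2 -0.81 and 0.07. Over all genes 20.7% were called negative in the same test, so 4 of 35 is below the background. After median-ratio rescaling Gbp7 alone of the 4 stayed called, and after the transcript-length correction none did, with -0.98 in Oasl2, -0.58 in Gbp7, -0.50 in Ifit2 and -0.18 in Eif2ak2. With the most abundant transcript Oasl2 (-0.74) and Gbp7 (-0.60) were not called, and Ifit2 (-0.99) and Eif2ak2 (-1.05) were. Shares over all genes under these changes are not given.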

How the results depend on the processing

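Of the values of single members recomputed under the alternatives, 3537 stayed on their side of the threshold, 339 lost a call and 100 gained one. Values that were not called could change sign and still count among the 3537, as 10 did with rescaling for prednisone against vehicle after MI and 13 for the interaction. Among called values 4 reversed: Oas2 with prednisone after MI to -0.20 with the most abundant transcript, Parp14 in that comparison to 0.11 with the transcript-length correction and to 0.22 with that correction and library 3 left out, and Ddx58 to 0.02 with the latter. The counts of called members moved more. After MI in vehicle mice the 15 became 4 with median-ratio rescaling, 5 without a filter, 5 with the replicate block, 0 with only the groups compared, 6 with the length correction, and, with library 3 left out, 0 with rescaling and 1 with the length correction. Leaving out 1 mouse gave 0 (without sham vehicle mouse 3) to 27 (without MI vehicle mouse 1), with 1 without sham vehicle mouse 1, and 6 without sham vehicle mouse 2 or MI vehicle library 3. After MI in prednisone mice the 4 became 11, 1, 2 and 7 under the first 4 of these. They became 6 with the length correction, 0 with the most abundant transcript and 2 with protein-coding transcripts. With library 3 left out they became 12 and 7, and with 1 mouse left out 1 to 10. With prednisone after MI the 13 became 8, 7, 8 and 1, then 7 with the length correction, 7 and 3 with library 3 left out, and 6 to 18. The interaction's 4 became 2 with rescaling, 1 with the length correction, 7 with protein-coding transcripts, 1 and 1 with library 3 left out, and 1 to 11, and it uses all groups, so no fit on the compared groups was run. Prednisone in sham hearts gave 0 throughout. The replicate numbers do not pair the mice (mean correlations of same-numbered mice of -0.37, -0.05, -0.25 and 0.00), and the replicate block gave 5, 2, 8, 0 and 3 calls. The cause of these changes was not tested, and the depth of the libraries is unknown.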
